A study of Homo sapiens with 6 samples.

Results

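The genes described here are 45 ribosome biogenesis and nucleolar genes, chosen by name from general knowledge of the pathway. Each of the 45 symbols stands on 1 row among the 18625 genes of the deposited table, and each had a mean of at least 10 normalized counts, so 45 of 45 were tested. The libraries came from NB4, a human cell line of acute promyelocytic leukemia that carries the PML-RARα fusion. The cells were kept for 3 days with the solvent DMSO or with Tan I (Tanshinone I, a diterpene of Salvia miltiorrhiza) at 10 μM, with 3 libraries per group. The labels do not say whether these were separate cultures, so p-values measure the spread between libraries, which may be technical. The comparison asks what the compound does to gene expression in leukemia cells.

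A ribosome is built in the nucleolus. RNA polymerase I transcribes the long ribosomal RNA precursor, small nucleolar RNPs (snoRNPs) modify it, and the small subunit processome and later factors fold, cut and export the 40S and 60S subunits. Many of these genes are known targets of the transcription factor MYC, and their products are abundant in fast-growing leukemia cells.

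The libraries held 21502760 to 31679138 recovered reads on the listed genes, and the 45 genes took 0.611% to 0.764% of them. The lowest count of a member in any library was 30 reads, for NOP2. The promyelocytic markers MPO, PRTN3, AZU1, CTSG and CD33 were found at 839 to 64107 normalized counts across the libraries, while CD3E, a T cell marker, did not exceed 20.0; ELANE was not analysed here. Among these markers MPO (log2 fold change -0.78) and CTSG (-0.69), both proteins of promyelocyte granules, were called lower in Tan I. The rule for a call, given below, uses unadjusted p. PRTN3 (-0.32), AZU1 (-0.25) and CD33 (0.07) were not called. Of 6 maturation and monocytic markers tested, ITGAX was called higher (0.39) by the same rule. CD14 (0.64), CSF1R (0.46), CYBB (0.01), ITGAM (-0.10) and LYZ (-0.25) were not called. In limma, the test described below, the smallest adjusted p was 0.999 in both marker lists. The part of these markers in the members' values was not tested. Some libraries stood apart from their group: on the first principal component, computed over 16887 genes and holding 70.8% of the variance, the scores were -48.0, 41.1 and -26.7 in DMSO replicates 1, 2 and 3 and -46.8, 8.65 and 71.6 in Tan I replicates 1, 2 and 3. In bulk RNA, fewer cells of one kind and less RNA per cell cannot be told apart.

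The promoters of 4 members are shown first, as examples that carry the E-box bound by MYC and its partners and belong to genes whose values are given below. Other members with values below, among them BYSL and NOP2, carry it too. FBL encodes the methyltransferase of the box C/D snoRNPs, RRP9 a U3 snoRNP protein, and UTP20 and NOP14 are small subunit processome factors. The sequences are those of RefSeq on GRCh38.p14, from 250 bases before to 50 bases after the annotated start, 5′ to 3′, with the E-box CACGTG in capitals.
FBL: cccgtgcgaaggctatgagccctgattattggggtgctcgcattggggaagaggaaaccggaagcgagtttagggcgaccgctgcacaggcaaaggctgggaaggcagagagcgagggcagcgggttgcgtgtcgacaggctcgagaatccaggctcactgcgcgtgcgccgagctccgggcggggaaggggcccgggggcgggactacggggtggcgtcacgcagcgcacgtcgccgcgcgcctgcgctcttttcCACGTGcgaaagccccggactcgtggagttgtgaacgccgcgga
RRP9: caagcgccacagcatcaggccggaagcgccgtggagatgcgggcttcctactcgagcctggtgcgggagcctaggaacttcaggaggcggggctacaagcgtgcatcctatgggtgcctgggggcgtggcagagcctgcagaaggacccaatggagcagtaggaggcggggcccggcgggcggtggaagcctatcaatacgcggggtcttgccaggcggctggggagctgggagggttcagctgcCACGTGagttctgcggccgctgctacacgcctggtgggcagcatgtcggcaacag
UTP20: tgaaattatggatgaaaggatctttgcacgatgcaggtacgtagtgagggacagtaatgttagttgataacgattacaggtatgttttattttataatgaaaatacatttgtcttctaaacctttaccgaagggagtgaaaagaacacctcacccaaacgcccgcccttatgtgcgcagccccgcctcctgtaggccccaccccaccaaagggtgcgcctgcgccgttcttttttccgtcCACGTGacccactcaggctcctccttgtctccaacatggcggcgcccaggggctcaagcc
NOP14: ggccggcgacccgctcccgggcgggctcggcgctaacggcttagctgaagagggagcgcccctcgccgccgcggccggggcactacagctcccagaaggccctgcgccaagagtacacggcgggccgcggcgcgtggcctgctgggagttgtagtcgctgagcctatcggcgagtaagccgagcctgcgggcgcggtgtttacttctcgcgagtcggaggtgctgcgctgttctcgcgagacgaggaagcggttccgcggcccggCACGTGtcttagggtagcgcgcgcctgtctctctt
The windows lie at chr19:39846330-39846629 on the minus strand for FBL, chr3:51941855-51942154 on the minus strand for RRP9, chr12:101279855-101280154 on the plus strand for UTP20 and chr4:2963357-2963656 on the minus strand for NOP14. Counted from the annotated start as 0, the E-box began at 6 in FBL, at -5 in RRP9, at -10 in UTP20 and at 15 in NOP14. RefSeq promoters of this length were found for 37 of the 45 members. CACGTG, which reads the same on both strands, was present in 12 of these 37 (32.4%), against 10.2% of the promoters of 10514 genes tested and 25% of 108 promoters of other ribosome biogenesis genes. A match of letters is a description of the window and says nothing of binding in NB4 cells.

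Levels were compared between genes as normalized counts per kilobase of the canonical transcript in GENCODE release 44. The 45 genes spanned a wide range, and the abundant nucleolar proteins and the snoRNP core led it. NPM1, nucleophosmin, a chaperone of histones and ribosomal proteins, stood first with a mean of 59963 normalized counts per kilobase over the 6 libraries. FBL followed with 6030.5 and NCL, nucleolin, with 5711, and the libraries of both genes overlapped on this scale. NOP56 (2875), DKC1 (2802) and GNL3 (2593), which also overlapped, came next, and then NOB1 (1641) and NHP2 (1479.9). GENCODE names 49 pseudogenes after NPM1, and the authors removed reads that mapped to several places, so its level is uncertain.

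**Figure D1:**
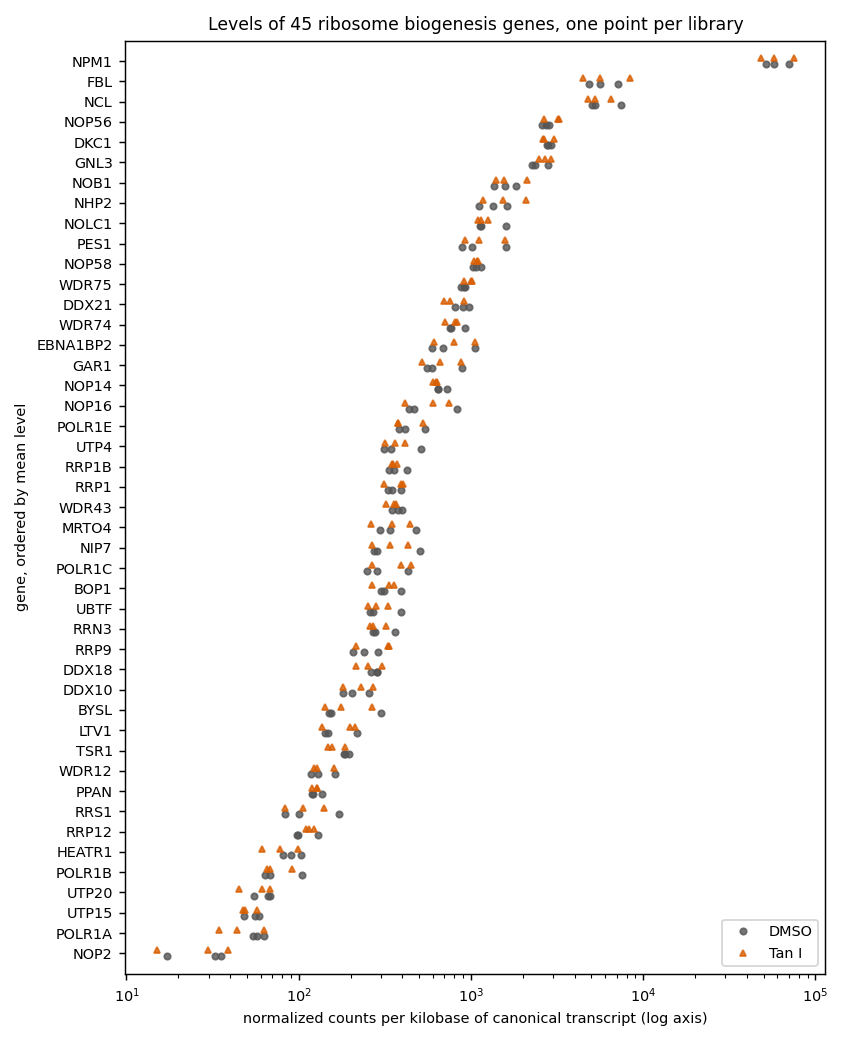
Normalized counts per kilobase of canonical transcript (log axis) for the 45 genes, ordered by their mean, with 1 point per library (DMSO circles, Tan I triangles). NPM1 leads with a mean of 59963 and NOP2 is lowest with 28.1, and the points of the groups overlap for 44 of the 45 genes.

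Subunits of one complex were not at one level. Among the box C/D core proteins, NOP58 reached 1076 normalized counts per kilobase against 6030.5 for FBL. In the box H/ACA snoRNP, which makes pseudouridine, the synthase DKC1 (2802) stood above its partners NHP2 (1479.9) and GAR1 (684). In the PeBoW complex of 60S assembly, PES1 (1186) stood above BOP1 (327) and WDR12 (137). Of the RNA polymerase I subunits, POLR1E (436) and POLR1C (345, shared with RNA polymerase III) were higher than the largest subunits POLR1B (76.7) and POLR1A (52.6). Some of these orders depend on the length used. Before division by length, WDR12 had mean normalized counts of 1101 in DMSO and 1107 in Tan I, and BOP1 had 813 and 776. Likewise, POLR1A (724 and 588) and POLR1B (592 and 562) were above POLR1C (409 and 471). Which transcripts the NB4 cells used was not tested. NOP2, a methyltransferase of 28S ribosomal RNA, was lowest with 28.1; 96.2% of its canonical transcript is also exon of a protein-coding gene on the same strand (ENSG00000285238), so its reads may not all have been assigned to it. The same holds for 61.8% of PPAN, a 60S factor that shares exons with the read-through gene PPAN-P2RY11, and for 34.7% of LTV1.

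No member was called between Tan I and DMSO. In limma, a linear model that shares the spread among genes, on log2(normalized count + 1), 0 of the 45 genes reached an unadjusted p of at most 0.05 together with a log2 fold change beyond -0.25 or 0.25, the rule for a call here, against a background of 2.42% of the 16887 genes tested. Without the fold threshold the count was also 0 of 45, where 2.43% of all genes passed, and it was 0 with edgeR (background 2.43%) and with DESeq2 (background 2.71%) on the recovered reads. With the fold threshold these backgrounds were 2.42% in edgeR and 2.49% in DESeq2, again with 0 members. The smallest adjusted p among members was 0.999 in limma, and the smallest unadjusted p was 0.133, for TSR1. Over all 16887 genes tested, 0 reached an adjusted p of at most 0.05 in limma, and the smallest was 0.118. The absence of adjusted calls is therefore not particular to the members. By sign, Tan I was higher for 19 members and lower for 26, while 49.7% of all genes tested were higher. With libraries set to an equal total, 11 of 45 members and 38.3% of all genes were higher, and the medians were -0.09 for members and -0.06 for all genes, a like shift in both. The median log2 fold change was -0.03 over the members and -0.0016 over all genes tested.

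The intervals give the range of changes compatible with these libraries. For 44 of the 45 members the 95% confidence interval of the log2 fold change lay inside -1 to 1, so a doubling or a drop by as much is outside it; NOP2, at -0.06 (95% confidence interval -1.04 to 0.93), was the exception. For 17 members the interval lay inside -0.5 to 0.5. Over all genes tested, 12341 of 16887 intervals lay inside the first range and 4843 inside the second. The standard error of the log2 fold change ran from 0.10 for NOP58 to 0.42 for NOP2, with a median of 0.19 over members and 0.22 over all genes tested.

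**Figure D2:**
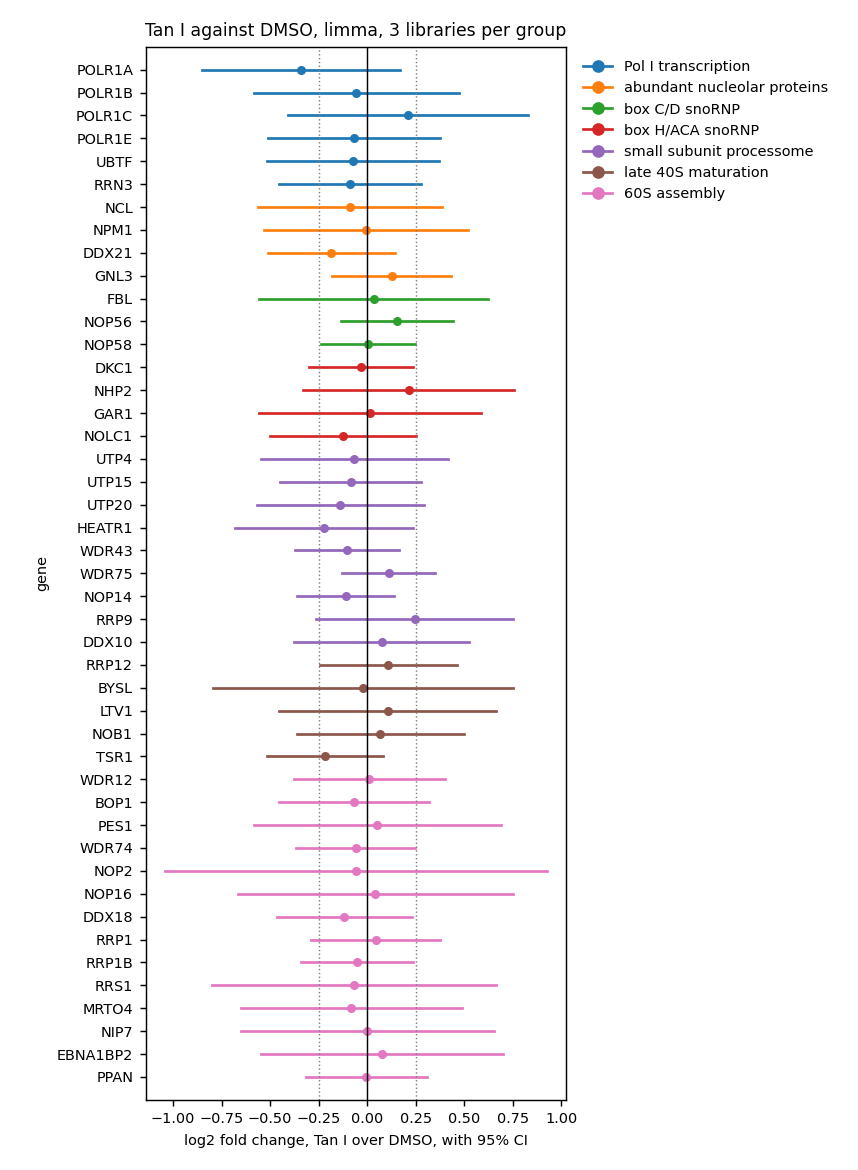
Log2 fold change between Tan I and DMSO from limma (point, positive where Tan I is higher) with its 95% confidence interval (line) for each of the 45 genes, coloured by role; dotted lines mark -0.25 and 0.25. Each interval includes 0, the point estimates run from -0.34 for POLR1A to 0.25 for RRP9, and the widest interval is that of NOP2.

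RNA polymerase I transcription was represented by 4 subunits and by its factors UBTF, which binds the ribosomal RNA genes, and RRN3, which links the polymerase to the promoter. Of these 6 genes, 1 was higher and 5 were lower by sign, 0 were called, and the median log2 fold change was -0.07. POLR1A, the largest subunit (GRCh38 chr2:86020216-86106155, minus strand), had the most negative value of the 45 genes, at -0.34 (95% confidence interval -0.85 to 0.17). Its normalized counts were 780.5, 675 and 717 in DMSO and 787, 546 and 432 in Tan I. Tan I replicates 2 and 3 lay below every DMSO library, but Tan I replicate 1 was the highest of all 6. POLR1C had the positive value of the group, 0.21 (95% confidence interval -0.41 to 0.83), with 363, 546 and 318 in DMSO and 339, 571 and 503 in Tan I. Here Tan I replicate 1 sat among the lower DMSO libraries and the groups overlapped. The other 4 genes ran from -0.09 for RRN3 to -0.05 for POLR1B.

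The abundant nucleolar proteins gave 0 calls as well. NPM1 had normalized counts of 68204, 92567 and 76228 in DMSO and 63636, 75655 and 98619.9 in Tan I, a log2 fold change of -0.01 (95% confidence interval -0.53 to 0.52). NCL, which binds precursor ribosomal RNA, had 19726, 29247 and 20527 in DMSO and 18769.5, 20583 and 25609 in Tan I and a log2 fold change of -0.09 (95% confidence interval -0.56 to 0.39). For both genes DMSO replicate 2 and Tan I replicate 3 were the highest libraries, so the spread inside each group was far wider than the difference between the means. DDX21, an RNA helicase of the nucleolus, had 4178, 4515 and 3791 in DMSO and 4259.6, 3511 and 3262 in Tan I, a log2 fold change of -0.18 (95% confidence interval -0.51 to 0.14). Tan I replicates 2 and 3 were its lowest libraries, while Tan I replicate 1 lay inside the DMSO range. GNL3, nucleostemin, a nucleolar GTPase, had 4576, 5445 and 4371 in DMSO and 4799, 5222 and 5661 in Tan I, a log2 fold change of 0.13 (95% confidence interval -0.18 to 0.43), and its groups overlapped.

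Of the 3 box C/D and 4 box H/ACA snoRNP proteins, 0 were called. FBL had normalized counts of 5469.7, 8071 and 6345 in DMSO and 4998, 6339 and 9483 in Tan I, a log2 fold change of 0.03 (95% confidence interval -0.56 to 0.62). NOP56 had 4956, 5427 and 5216 in DMSO and 5083, 6195 and 6129 in Tan I, a log2 fold change of 0.15 (95% confidence interval -0.13 to 0.44). Both DMSO replicate 2 and Tan I replicate 3 were high for FBL, and for NOP56 Tan I replicate 1 fell inside the DMSO range. NOP58, with the smallest standard error of the 45 genes, had normalized counts of 2266, 2129.6 and 2037 in DMSO and 2203, 2164 and 2078 in Tan I. In the box H/ACA group, DKC1, dyskerin, had 6936, 7184 and 6835 in DMSO and 6473, 7519 and 6553 in Tan I, a log2 fold change of -0.03 (95% confidence interval -0.30 to 0.23). NHP2 had 866, 1259.8 and 1052 in DMSO and 916, 1201 and 1631 in Tan I, a log2 fold change of 0.21 (95% confidence interval -0.33 to 0.76), and 48.2% of its canonical transcript is also covered, on the opposite strand, by exons of RMND5B. Its highest library was Tan I replicate 3 and its second was DMSO replicate 2, and the groups overlapped. GAR1 (0.01) and NOLC1 (-0.12), a chaperone of snoRNPs, had the other log2 fold changes of the group.

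Of the 9 small subunit processome genes, 3 were higher and 6 were lower by sign, with a median log2 fold change of -0.09. RRP9 had the most positive value of the 45 genes, 0.25 (95% confidence interval -0.26 to 0.75), from normalized counts of 318, 443 and 368 in DMSO and 330.4, 506 and 517 in Tan I. Tan I replicates 2 and 3 lay above every DMSO library, and Tan I replicate 1 lay below 2 of them. HEATR1, a subunit of the complex that starts the processome on the precursor, had 867, 685 and 760.3 in DMSO and 841, 656 and 516 in Tan I, a log2 fold change of -0.22 (95% confidence interval -0.68 to 0.24). UTP20 had 616, 498 and 599 in DMSO and 613, 552 and 407 in Tan I, a log2 fold change of -0.14 (95% confidence interval -0.57 to 0.29). In both genes Tan I replicate 3 was the lowest library, Tan I replicate 1 was close to the DMSO maximum, and the groups overlapped.

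NOP14 was the 1 member of 45 whose groups did not overlap, against 7.89% of all genes tested (3.92% with Tan I above and 3.97% with Tan I below), and it is named because of that, after its values were seen. It had normalized counts of 2284, 2583 and 2284 in DMSO and 2137, 2247 and 2231 in Tan I, so each Tan I library lay below each DMSO library (two-sided p = 0.1 by exact permutation, the lowest value possible with 3 libraries per group). The gap was small beside the DMSO spread: its log2 fold change came to -0.11 (95% confidence interval -0.36 to 0.14), with an adjusted p of 0.999 in limma (0.332 unadjusted). The antisense gene NOP14-AS1 covers 20.6% of its canonical transcript on the other strand, and the strand setting of the counting is not given in the sources used here. The same limit holds for the 12 members with exons of other genes on the opposite strand. Among them are WDR74 (32.8%, STX5-DT), TSR1 (27.0%, SRR), NOB1 (25%, NQO1-DT) and HEATR1 (24.8%, LGALS8). The other 5 genes of the small subunit processome, which include the UTP4, UTP15, WDR43 and WDR75 subunits and the helicase DDX10, ran from -0.10 for WDR43 to 0.11 for WDR75.

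Late 40S maturation was represented by 5 genes, 3 higher and 2 lower by sign. TSR1, a factor of cytoplasmic 40S maturation, had normalized counts of 835, 781 and 792 in DMSO and 791, 661 and 629 in Tan I, a log2 fold change of -0.22 (95% confidence interval -0.52 to 0.08). Tan I replicates 2 and 3 were below each DMSO library and Tan I replicate 1 fell between them. NOB1, the endonuclease that makes the 3′ end of 18S ribosomal RNA, had 2348, 3149.6 and 2716 in DMSO and 2399, 2673 and 3611 in Tan I, a log2 fold change of 0.07 (95% confidence interval -0.36 to 0.50). RRP12, BYSL and LTV1 lay between -0.02 and 0.11. BYSL, singled out after its values were seen, had 263, 516 and 259 in DMSO and 244, 302 and 455 in Tan I, so its DMSO libraries alone spanned 0.99 on the log2 scale.

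The 14 genes of 60S assembly ranged in log2 fold change from -0.12 for the helicase DDX18 to 0.08 for EBNA1BP2, with 6 higher, 8 lower and a median of -0.03. They include the PeBoW proteins PES1 (0.05), BOP1 (-0.07) and WDR12 (0.01), the paralogs RRP1 (0.04) and RRP1B (-0.05), and RRS1 (-0.07), which helps to place the 5S RNP. MRTO4, which holds the place of the stalk protein, was at -0.08, and NOP16, WDR74, NIP7 and PPAN lay between -0.06 and 0.04. NOP2 had normalized counts of 94.2, 45.3 and 86.0 in DMSO and 103, 79.04 and 40.01 in Tan I, lowest in the libraries where most members were highest, and its log2 fold change of -0.06 had the widest interval of the 45.

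Genes of the same pathway outside the 45 were read from lists written from general knowledge: 128 of 129 were in the table and tested. Of these, 1 passed the unadjusted thresholds, higher in Tan I, and 0 were lower, against backgrounds of 1.32% and 1.1% of all genes. This gene was UTP18, a small subunit processome factor, with normalized counts of 959, 947 and 837 in DMSO and 995, 1187 and 1287 in Tan I and a log2 fold change of 0.33 (95% confidence interval 0.01 to 0.65). Each Tan I library of UTP18 was above each DMSO library, and its adjusted p from limma was 0.999. By sign, 82 of the 128 were higher, with a median of 0.05; when all libraries were set to an equal total, which lowered the median of all genes as given above, 60 of 128 were higher and the median was -0.0077. Leaving out 1 library gave medians from -0.05 (46 higher, without Tan I replicate 3) to 0.16 (98 higher, without DMSO replicate 2), with 0.14 (94 higher) without Tan I replicate 1, 0.01 (69 higher) without DMSO replicate 3 and 0.00039 (65 higher) without DMSO replicate 1. With the scores on the first principal component as a term in the fit, the median was -0.03 (50 higher). Of the 79 cytosolic ribosomal protein genes, whose products these factors assemble, 1 was called higher in Tan I and 0 lower, against the same backgrounds. It was RPS10, with a log2 fold change of 0.38 and an adjusted p of 0.999 in limma. The median of the 79 genes was 0.08, with 77 higher. This median was -0.01 with quantile normalization, 0.02 with an equal total, -0.07 with the component as a term and 0.11 in both edgeR and DESeq2. It was 0.30 without Tan I replicate 1, 0.21 without DMSO replicate 2, -0.05 without DMSO replicate 1 and -0.16 without Tan I replicate 3.

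MYC, the regulator named above, was called without adjustment and was lower in Tan I. Its normalized counts were 4064, 5259 and 4870.3 in DMSO and 2989.9, 3385 and 3958 in Tan I, so each Tan I library lay below each DMSO library. On the log2 scale this came to -0.46 (95% confidence interval -0.82 to -0.10), with an adjusted p of 0.999 in limma (0.0186 unadjusted). The adjusted p ran from 0.000631, in limma with the main axis of variation among libraries as a covariate, to 1 over the alternatives that kept all libraries. That covariate was computed from these same libraries. With it, 15.4% of all genes had an unadjusted p of at most 0.05 in limma, against 2.43% in the main fit. Without DMSO replicate 2, DMSO replicate 3, Tan I replicate 1 or Tan I replicate 2, the unadjusted p for MYC was 0.0574, 0.0638, 0.0539 and 0.0585. The 12 members with CACGTG in the promoter had a median log2 fold change of -0.04, 5 higher and 7 lower, and the 25 without it had -0.0049, 12 higher and 13 lower. No test of a difference between MYC and the members, or between these 2 sets, was run.

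**Figure D3:**
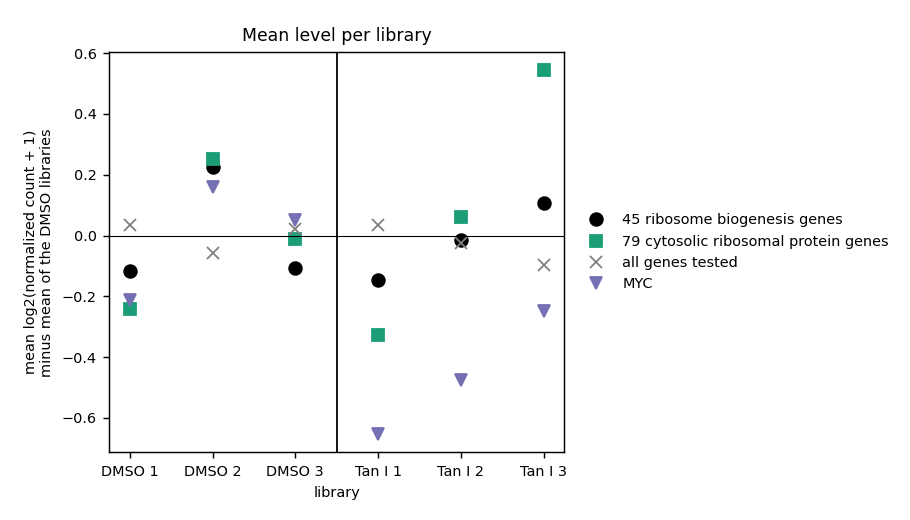
Mean log2(normalized count + 1) per library, as the difference from the mean of the DMSO libraries, for the 45 members, the 79 cytosolic ribosomal protein genes, all genes tested and MYC. The members lie lowest in Tan I replicate 1 (-0.15) and highest in DMSO replicate 2 (0.22), with the groups overlapping, while MYC is lower in each Tan I library than in each DMSO library.

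For 40 of the 45 genes the range over the 3 DMSO libraries was wider than the absolute log2 fold change, a share near the 86.7% of all genes tested. The mean log2 level of the members was 10.08, 10.42 and 10.09 in DMSO replicates 1, 2 and 3 and 10.05, 10.18 and 10.30 in Tan I replicates 1, 2 and 3. DMSO replicate 2 and Tan I replicate 3 were the highest libraries for 27 members, among them NCL, NPM1, FBL, PES1 and UBTF, and for 26.5% of all genes tested. They were the lowest for 2 members, UTP20 and NOP2. These are also the libraries with the highest scores on the first principal component.

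**Figure D4:**
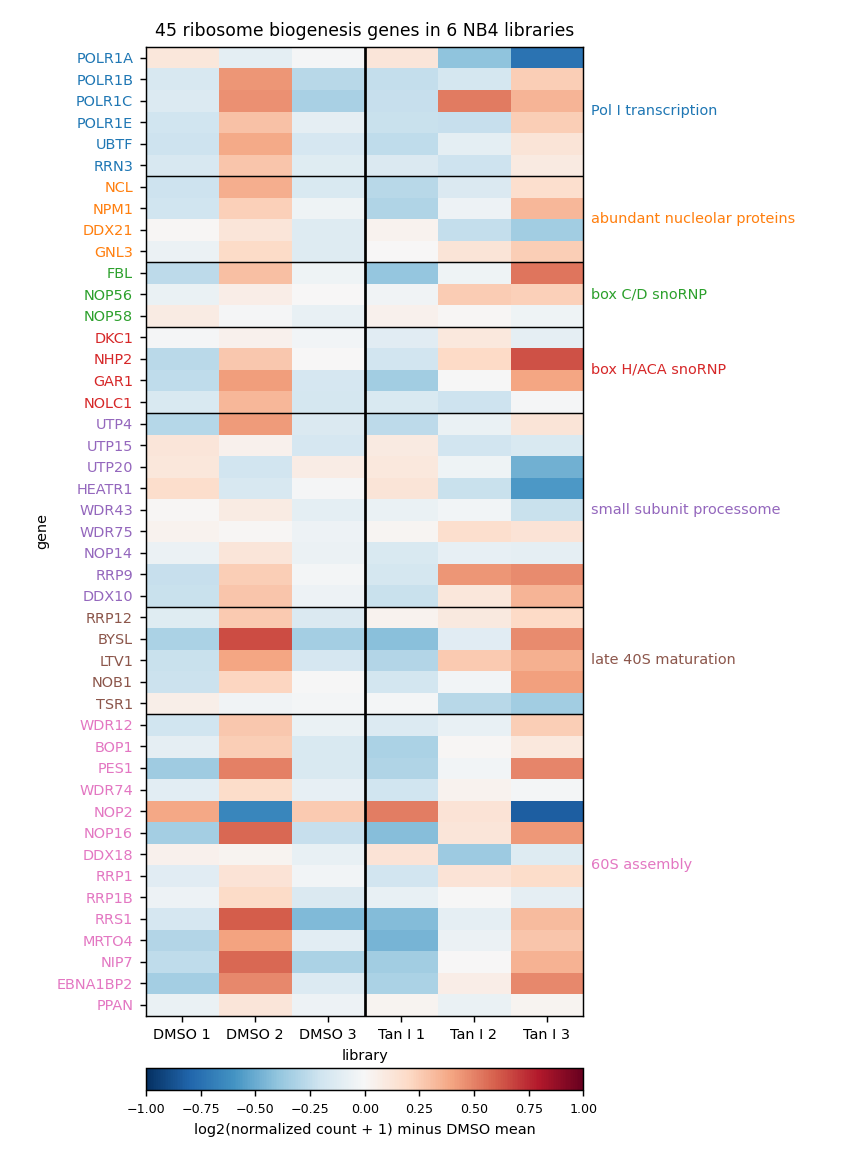
Each cell is log2(normalized count + 1) of a gene in a library minus its mean over the DMSO libraries, for the 45 genes in rows grouped by role and the 6 libraries in columns. Red cells fill most of the DMSO 2 and Tan I 3 columns, and 27 genes have these as their highest libraries, whereas NOP2 and UTP20 have them as their lowest.

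The library pattern moved with transcript length. Between DMSO replicates 2 and 1, the members at or under the median length of 2428 nucleotides had a median log2 ratio of 0.56 (23 genes) and the longer ones 0.14 (22 genes). Between Tan I replicates 3 and 1 these medians were 0.64 and 0.04. Across the 45 genes, Spearman's rho between length and the log2 ratio was -0.52 for the DMSO pair and -0.72 for the Tan I pair, and -0.18 and -0.28 across the 16825 genes tested that have a length. Genes in these correlations share the same pair of libraries and are not independent replicates. The log2 fold change between Tan I and DMSO showed the same tilt across members, with a rho of -0.61. Its median was 0.01 in the shorter and -0.09 in the longer genes. For this fold change the rho across all genes tested was not computed, so the tilt cannot be called particular to the members. The members with the most negative values, POLR1A, HEATR1, TSR1, DDX21 and UTP20, have canonical transcripts of 12480, 8459, 4245, 4664 and 9031 nucleotides. Other long members had log2 fold changes nearer to 0, among them WDR12 (8068 nucleotides, 0.01) and POLR1B (7527 nucleotides, -0.05). The part of length in the differences between the groups was not tested.

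**Figure D5:**
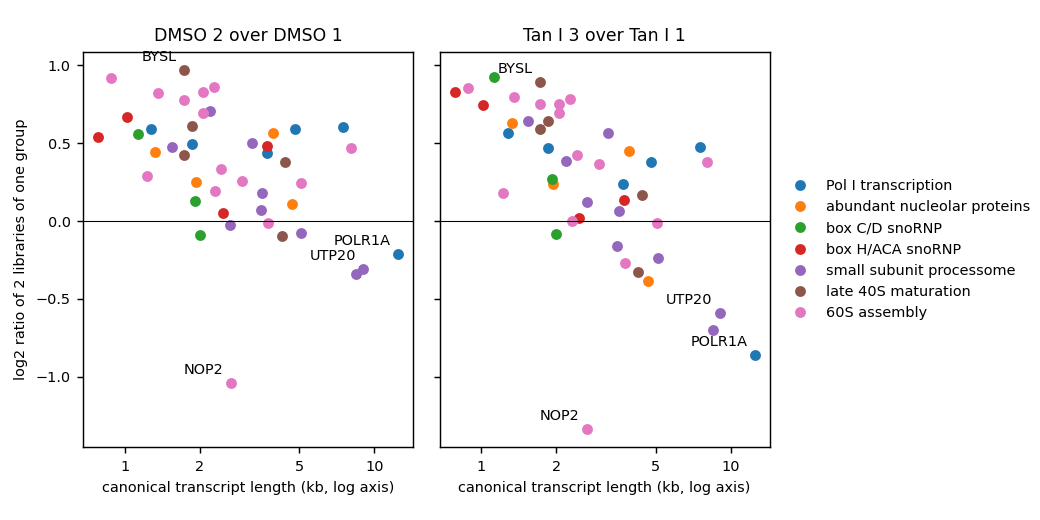
Log2 ratio between 2 libraries of one group (left, DMSO 2 over DMSO 1; right, Tan I 3 over Tan I 1) against the length of the canonical transcript in kilobases (log axis), 1 point per gene, coloured by role. In both panels BYSL, a short gene, lies above 0, and NOP58, also short, lies slightly below it. The long genes UTP20 and POLR1A lie below 0, while WDR12 and POLR1B, also long, lie above it, and NOP2 lies lowest.

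Some members host small RNAs, a feature that the choice of genes did not use. In GENCODE release 44, 9 of the 45 members hold 28 snoRNA genes inside them on the same strand: GNL3 holds 6, NOP56 5, NOP58 4, NCL and WDR43 3 each, DKC1, TSR1 and PPAN 2 each, and POLR1C 1. The log2 fold changes of these hosts ran from -0.22 to 0.21, with 4 higher and 5 lower. The snoRNAs themselves were not measured here.

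The count of calls rested on no single DMSO library, but without Tan I replicate 1 POLR1A, RRP9 and TSR1 passed the unadjusted thresholds, 3 of 45 where 8.86% of all genes did (4.32% higher and 4.54% lower in Tan I). The median over members turned positive without DMSO replicate 2 (0.12) and without Tan I replicate 1 (0.06), and with the scores of that component as a covariate it was -0.11, with 9 of 45 higher, 0 called, where 8.86% of all genes were, and 7 at an unadjusted p of at most 0.05, where 15.4% of all genes were. Named log2 fold changes also moved with single libraries. POLR1A lay between -0.57 without Tan I replicate 1 and -0.14 without Tan I replicate 3, and HEATR1 between -0.40 and -0.05 for the same libraries. NHP2 lay between 0.0027 without Tan I replicate 3 and 0.42 without Tan I replicate 1, and POLR1C between 0.05 without DMSO replicate 3 and 0.44 without DMSO replicate 2.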

How the data were processed

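RNA-seq was performed on 6 NB4 libraries, 3 per treatment. The authors used STAR to place paired-end reads on GRCh38, kept those with 1 location, counted them per gene with featureCounts and analysed the counts in DESeq2; versions, strand and annotation release are not given in the sources used here. The deposited signal values are read counts divided by the authors with one size factor per library; 100% of values came out as whole reads (tolerance 0.001 reads) when divided by the lowest value above 0 in its library, which gave the recovered reads. The authors' fold changes and p-values in the table were not used.

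Groups were compared with limma 3.58.1 (R 4.3.3, trend) on log2(normalized count + 1), treatment as the only term, for 16887 genes with a mean of at least 10, with Benjamini-Hochberg adjustment over all of them. Fold changes of low genes are understated on this scale. The alternatives included edgeR 4.0.16 and DESeq2 1.42.0 on recovered reads. Scripts were checked on simulated reads. Values per library were given for called members, the 5 largest log2 fold changes in each direction and the 8 highest per kilobase; those of NOP14, BYSL, NOP58 and NOP2 were added after their values were seen. Members and lists were chosen with earlier results of these data known. Interval widths cover the spread between libraries. Lengths and overlaps came from GENCODE release 44, promoters from RefSeq (GRCh38.p14).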

Additional observations from a re-analysis of the deposited data

How the results depend on the processing

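The count of 0 called members was the same under 13 of 13 changes of pseudocount, filter, normalization, test, terms or threshold. The changes of threshold, to a larger fold or to adjusted p, were stricter than the main rule. They could not raise a count of 0, so their result was fixed in advance and does not test it. The count ran from 0 to 3 when 1 library was left out (3 without Tan I replicate 1). The number of members higher by sign, 19 of 45, became 11 with all libraries set to an equal total, which lowered the median of all genes to -0.06 as well, 9 with the scores on the first principal component as a covariate, and it ran from 9 to 33 when 1 library was left out: 9 without DMSO replicate 1, 33 without DMSO replicate 2, 14 without DMSO replicate 3, 30 without Tan I replicate 1, 22 without Tan I replicate 2 and 10 without Tan I replicate 3. Their median log2 fold change lay between -0.11 and -0.03 under the settings that kept all libraries and between -0.11 and 0.12 when 1 was left out. UTP20 ran from -0.26 to 0.033 on leaving out 1 library and turned positive without Tan I replicate 3. With the replicate block, 0 members were called and the median stayed at -0.03. The replicate numbers pair no cultures in the labels: deviations from the group means correlated at 0.75, -0.09 and -0.45 across genes for numbers 1, 2 and 3, so not every library correlated best with its own number. The cause of the shifts between settings was not tested. With 3 libraries per group, the median standard error of a member's log2 fold change was 0.19.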
